A study of Mus musculus with 40 samples.

Results

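NRF2, encoded by Nfe2l2, is a transcription factor that switches on genes against oxidants and reactive chemicals. KEAP1, encoded by Keap1, holds NRF2 in the cytosol and sends it to degradation until its cysteines are modified, so NRF2 activity is set largely by protein stability and not by the level of its RNA. In the bladder lining, as in other epithelia, its targets make glutathione, recycle thioredoxin, reduce quinones and supply NADPH. The 10 genes described here are this sensor pair and 8 enzyme genes, Nqo1, Gclc, Gclm, Gsr, Txnrd1, Srxn1, Hmox1 and G6pdx. They were taken by gene symbol from the 53465 gene identifiers of an RNA-seq count table. All 10 were found, and all 10 were among the 16921 genes that passed the filter on low counts.

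Organoids of mouse bladder urothelium came in 2 genotypes, wild type (WT) and a double knockout of Kmt2c and Kmt2d (labelled dKO), genes that encode enhancer H3K4 methyltransferases. Each genotype was given the solvent DMSO or MI-503, a small molecule that blocks the binding of menin to KMT2A, at 1 µM for 4 days. This makes 4 groups of 2 polyA RNA libraries: WT DMSO, WT MI-503, labelled dKO DMSO and labelled dKO MI-503. All 4 groups shared a medium with 1.25 mM N-acetyl-L-cysteine, itself an antioxidant and a source of cysteine, with the growth factor EGF (50 ng/ml), with the kinase inhibitors Y-27632 (10 µM) and A83-01 (0.5 µM), and with Noggin and R-spondin conditioned media. The sources used here do not give the alleles, the way they were deleted, the age of the mice, the number of lines or clones, or whether replicates were separate cultures, so p-values measure only the spread between these libraries. The other 32 of the 40 samples, made by other assays, were not analysed here.

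Library totals ran from 58113705 to 68571176 counts, and every count of the 10 genes in a library was at least 959. Values are CPM, the usual unit of counts relative to the library total, scaled by TMM, a correction for the makeup of each library, and the 2 values of a group are given as replicates 1 and 2. Kmt2c RNA was lower in labelled dKO than in WT in DMSO (log2 fold change -1.04, edgeR adjusted p = 2.6e-09), whereas Kmt2d RNA was higher (0.43, adjusted p = 0.00166), so gene-level RNA does not show a loss of Kmt2d. The targets of the drug were present in every group, with Kmt2a at 84.5 to 150.2 CPM and Men1 at 14.5 to 48.7 CPM. The urothelial marker Upk1b had at least 97.5 CPM in every library, while Krt20, a marker of the outermost cells, was at most 0.518 CPM in WT and 6.60 to 11.3 CPM in labelled dKO. The uroplakin genes Upk1a, Upk2, Upk3a and Upk3b were low, at most 1.90, 0.149, 2.58 and 1.64 CPM in any library. The summed level of 18 urothelial markers was 10221 to 11072 CPM in WT DMSO, 16926 to 17675 in WT MI-503, 21214 to 23149 in labelled dKO DMSO and 20325 to 22518 in labelled dKO MI-503. Of the 17 tested, 7 rose and 7 fell with MI-503 in WT, beside 35.2% of all tested genes risen and 33.7% fallen. In labelled dKO cells 3 rose and 9 fell with MI-503, beside 29.1% and 26.5%. Between the genotypes in DMSO 10 rose and 4 fell, beside 29.6% and 35.8%. The basal keratin gene Krt5 had 3974 ± 222, 7470 ± 289, 9579 ± 730 and 10390 ± 880 CPM (SD, n = 2) in the same order of groups. The keratin gene Krt14 had 1934 ± 208, 1458 ± 123, 4846 ± 559 and 4324 ± 506 CPM. Its mean was thus lower with MI-503 in WT, where that of Krt5 was higher. With MI-503, the keratin gene Krt7 rose in both genotypes (log2 fold change 1.93 in WT and 0.48 in labelled dKO, adjusted p = 9.52e-12 and 1.63e-05), and Trp63, a basal cell regulator, fell by 0.96 and 0.83 (adjusted p = 1.75e-10 and 2.24e-09). Of 10 macrophage and other immune markers, Adgre1 and C1qa had 0 counts in all 8 libraries. The summed level of that list was 16.5 to 18.7 CPM in WT DMSO, 161 to 166 in WT MI-503, 13.1 to 13.2 in labelled dKO DMSO and 61.2 to 69.9 in labelled dKO MI-503, nearly all of it Cd68, a lysosomal protein gene. The summed level of 10 fibroblast and smooth muscle markers was 4.49 to 5.59 CPM in WT DMSO, 41.8 to 44.0 in WT MI-503, 4.97 to 5.33 in labelled dKO DMSO and 15.3 to 16.0 in labelled dKO MI-503, with 3 or 4 of the 10 at 0 in each group. The smooth muscle actin gene Acta2 rose with MI-503 in both genotypes (log2 fold change 3.67 and 2.86, adjusted p = 5.1e-12 and 1.84e-09). Of the 6 tested genes of this list, 2 rose and 1 fell in WT, beside 35.2% and 33.7% of all tested genes. In labelled dKO cells 2 rose and 0 fell, beside 29.1% and 26.5%. Pdgfra went from 3.70 ± 0.362 to 7.84 ± 0.609 CPM in labelled dKO cells. Pdgfrb went from 0.361 ± 0.0424 to 0.0313 ± 0.00295 CPM in WT. The 5 endothelial markers summed to 0.0981 to 0.468 CPM over the 8 libraries. The part of all these markers in the results was not tested. The WT DMSO libraries stood apart in 14 endoplasmic reticulum chaperone genes. Counts of those 14 genes summed to 4.01% and 4.33% of the TMM-scaled library total, against 0.367% to 0.488% in the other 6 libraries. The TMM factor was 0.896 and 0.892 in WT DMSO and 1.01 to 1.06 in the other 6, so plain shares of counts lie less far apart. Comparisons with WT DMSO move together with those genes. With the 14 genes removed from the table, as many of the 10 genes were called in each direction as before in all 5 comparisons. That removal can reach other genes only through the scaling and the shared fit. The WT DMSO libraries stayed in, so it does not test what their state does to the 10 genes. What else sets these 2 libraries apart was not tested. In bulk RNA, fewer cells of a kind and less RNA per cell cannot be told apart.

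RefSeq promoter windows of GRCm38.p6, from 250 bases before to 50 bases after a start site, were given for 7 of the 10 genes, Nfe2l2, Keap1, Nqo1, Gclm, Txnrd1 (3 windows), Srxn1 and G6pdx. Windows of Gclc, Gsr and Hmox1 were not used here. The core of the antioxidant response element, the DNA stretch that NRF2 binds with a small MAF partner, was searched on both strands as TGACNNNGC. It occurred in a window of 5 of these 7 genes, beside 14% of all 27025 genes with windows. Counted by window it was 5 of 9, beside 12.4% of all 32851 windows. The 10 genes were picked as NRF2 pathway genes, so a high share was likely from the choice. The longer spelling TGANTCAGC, chosen after the sequences were seen, occurred in 1 of the 7 genes and in 1.37% of all genes. The AP-1 site TGACTCA, which can overlap both, also occurred in 1 of the 7 genes and in 5.95% of all genes. The stretches before the start sites that hold these letters are given 5′ to 3′ on the strand of the gene, since they belong to genes that rose with MI-503 and to the regulator that did not. Capitals mark a match on either strand, and positions count back from the start site of the window. For Gclm that site is 122245557, not the gene start 122245487 given below.
Srxn1, bases -250 to -1, chr2:152105274-152105523, plus strand: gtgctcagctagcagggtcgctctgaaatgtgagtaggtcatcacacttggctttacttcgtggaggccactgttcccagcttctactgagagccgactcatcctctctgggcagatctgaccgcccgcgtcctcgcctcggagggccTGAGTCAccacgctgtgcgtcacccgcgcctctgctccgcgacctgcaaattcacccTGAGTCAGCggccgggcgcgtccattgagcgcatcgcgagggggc
Gclm, bases -154 to -106, chr3:122245403-122245451, plus strand: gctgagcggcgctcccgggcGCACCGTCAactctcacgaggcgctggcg
Txnrd1, bases -112 to -64 of the window whose start site is 82859206, chr10:82859094-82859142, plus strand: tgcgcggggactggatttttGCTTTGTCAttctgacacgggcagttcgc
G6pdx, bases -77 to -29, chrX:74428909-74428957, minus strand: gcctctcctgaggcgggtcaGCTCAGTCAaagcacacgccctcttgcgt
Nfe2l2, bases -250 to -212, chr2:75704875-75704913, minus strand: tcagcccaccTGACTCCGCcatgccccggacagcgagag

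In Srxn1, 2 AP-1 letters start at -102 and -45, the latter extends into the longer spelling, and the TGACNNNGC match lies after the start site, at 29. No match was found in the windows of Nqo1 or Keap1, which says only that these letters are not in these windows. A match is a description of letters and not a bound site.

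MI-503 was followed by more RNA of Keap1, Nqo1, Gclc, Gclm, Gsr, Txnrd1, Srxn1 and G6pdx and by less RNA of Nfe2l2 and Hmox1, in both genotypes. In WT, 8 of the 10 genes rose and 2 fell, where 69% of all tested genes passed, 35.2% rising and 33.7% falling. In labelled dKO cells, again 8 rose and 2 fell, where 55.6% of all tested genes passed, 29.1% rising and 26.5% falling. The median log2 fold change of the 10 genes was 0.83 in WT and 1.26 in labelled dKO cells, against 0.03 over all tested genes in each. At least 2-fold rises were found for 4 genes in WT (16.4% of all tested genes) and 6 in labelled dKO cells (8.89%). At least 2-fold falls were found for Hmox1 alone of the 10 in WT (12% of all tested genes) and for none in labelled dKO cells (5.19%). The 2 libraries of each treatment did not overlap for any of the 10 genes in either genotype, which held for 83.4% of all tested genes in WT and 75.1% in labelled dKO cells. These counts of risen genes were the same under every other scaling, filter, test or left-out library that was run. Scaling by library size alone moved the median of all genes by 0.17 in WT, where the share of risen genes among all calls went from 51.1% to 60.8%, and by 0.01 in labelled dKO cells.

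**Figure D1:**
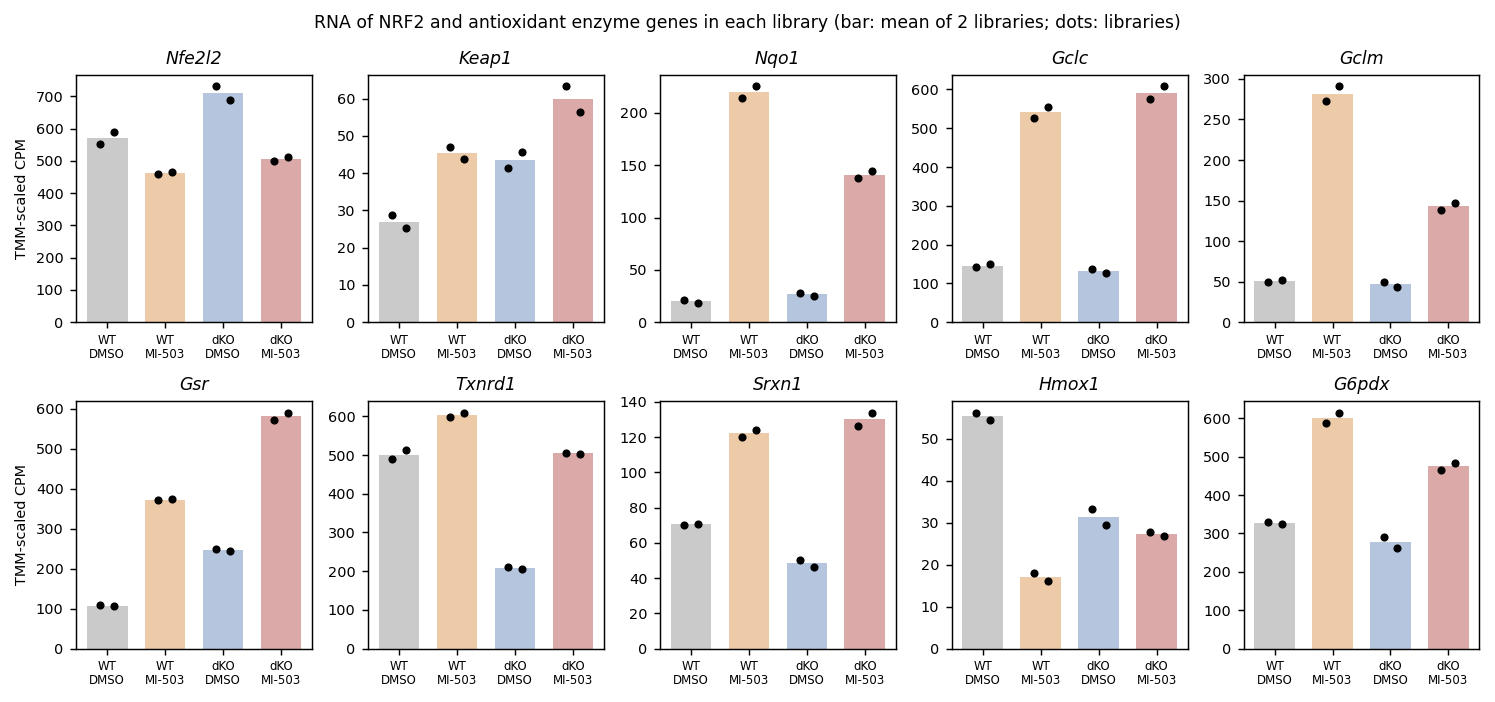
TMM-scaled CPM of each of the 10 genes in 8 libraries, with bars for the mean of 2 libraries and dots for libraries; dKO stands for labelled dKO. Nqo1, Gclc, Gclm and Gsr are higher in every MI-503 library than in the DMSO libraries of the same genotype, and Hmox1 is highest in WT DMSO.

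Nqo1 (ENSMUSG00000003849, chromosome 8, 107388225 to 107403205) encodes a quinone reductase and is a standard readout of NRF2 activity. It measured 21.4 and 18.8 CPM in WT DMSO, 214 and 225 in WT MI-503, 27.7 and 25.5 in labelled dKO DMSO, and 138 and 144 in labelled dKO MI-503. The 4 groups did not overlap, and the treated WT libraries were the highest. With MI-503, Nqo1 rose 10.9-fold in WT (log2 fold change 3.45, SE 0.069, edgeR adjusted p = 1.09e-13) and 5.31-fold in labelled dKO cells (2.41, SE 0.066, adjusted p = 6.76e-12). Its rise exceeded that of 98.3% of all tested genes in WT and 98.2% in labelled dKO cells, the highest percentile of the 10 genes in each. In labelled dKO cells the rise was smaller than in WT (difference of log2 fold changes -1.04, adjusted p = 7.9e-07). Nqo1 was higher in labelled dKO than in WT in DMSO (0.40, adjusted p = 0.000141) but lower under MI-503 (-0.64, adjusted p = 7.7e-07).

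Gclc and Gclm encode the catalytic and the modifier subunit of glutamate-cysteine ligase, which makes the first step of glutathione synthesis. Gclc (ENSMUSG00000032350, chromosome 9, 77754535 to 77794489) measured 142 and 149.9 CPM in WT DMSO, 526 and 556 in WT MI-503, 138 and 127 in labelled dKO DMSO, and 575 and 608 in labelled dKO MI-503. It was high in all 4 treated libraries and rose 3.71-fold in WT (log2 fold change 1.89, SE 0.057, adjusted p = 3.83e-12) and 4.47-fold in labelled dKO cells (2.16, SE 0.057, adjusted p = 5.95e-12). Gclm (ENSMUSG00000028124, chromosome 3, 122245487 to 122267215) measured 49.8 and 51.9, 272 and 291, 50.0 and 43.9, and 139 and 147 CPM in the same order. The DMSO libraries of the genotypes overlapped, while the treated libraries of labelled dKO cells lay between them and the treated WT libraries. Gclm rose 5.54-fold in WT (2.47, SE 0.065, adjusted p = 1.21e-12) and 3.05-fold in labelled dKO cells (1.61, SE 0.064, adjusted p = 1.98e-10).

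The subunit genes responded differently to MI-503 in the 2 genotypes. The rise of Gclm was smaller in labelled dKO cells than in WT (difference -0.86, adjusted p = 3.26e-06), whereas that of Gclc was larger (0.27, adjusted p = 0.0117). This Gclc difference did not pass with library size only (0.11), with the stricter filter (0.17) or without WT MI-503 replicate 1 (0.23). The ratio of Gclc to Gclm counts, which is not a ratio of molecules because the transcripts differ in length, was 2.85 and 2.89 in WT DMSO and 2.76 and 2.88 in labelled dKO DMSO. With MI-503 it was lower in WT, at 1.93 and 1.91, and higher in labelled dKO cells, at 4.14 and 4.12. Under MI-503, Gclm was 1.97-fold lower in labelled dKO than in WT (log2 fold change -0.98, adjusted p = 1.12e-08), while Gclc did not pass (0.13, 95% interval 0.01 to 0.25, adjusted p = 0.0608). The Gclc call in that comparison was reached with no filter, library size only, only the groups compared, or without labelled dKO DMSO replicate 1 or 2 or labelled dKO MI-503 replicate 1, with values of 0.12 to 0.20.

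**Figure D2:**
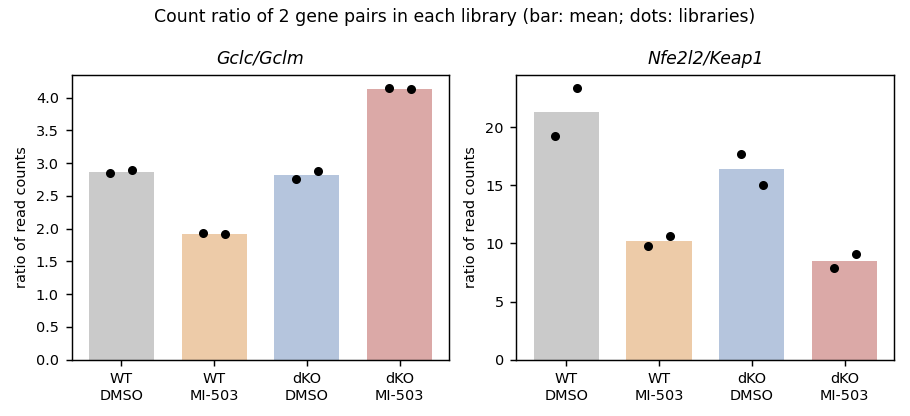
Ratio of read counts of Gclc to Gclm (left) and of Nfe2l2 to Keap1 (right) in each library, with bars for the mean and dots for the 2 libraries of a group. The Gclc to Gclm ratio is lowest in WT MI-503 and highest in labelled dKO MI-503, and the Nfe2l2 to Keap1 ratio is lower in the MI-503 libraries of both genotypes.

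Gsr encodes glutathione reductase, which turns oxidised glutathione back to its reduced form with NADPH. Gsr (ENSMUSG00000031584, chromosome 8, 33653238 to 33698162) measured 109 and 106 CPM in WT DMSO, 371 and 374 in WT MI-503, 249 and 244 in labelled dKO DMSO, and 572 and 590.3 in labelled dKO MI-503. No groups overlapped, and labelled dKO libraries were above WT libraries in either treatment. With MI-503, Gsr rose 3.47-fold in WT (log2 fold change 1.79, SE 0.045, adjusted p = 7.69e-13) and 2.36-fold in labelled dKO cells (1.24, SE 0.044, adjusted p = 6.38e-11). The rise was smaller in labelled dKO cells (difference -0.55, adjusted p = 6.59e-06).

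Txnrd1 encodes the cytosolic thioredoxin reductase, a selenoprotein that keeps thioredoxin reduced. Txnrd1 (ENSMUSG00000020250, chromosome 10, 82833951 to 82897724) measured 489.8 and 512 CPM in WT DMSO, 599 and 609.8 in WT MI-503, 210.2 and 207 in labelled dKO DMSO, and 506 and 503 in labelled dKO MI-503. The labelled dKO DMSO libraries stood below all others, and the treated labelled dKO libraries overlapped with WT DMSO. It rose by a log2 fold change of 0.27 in WT (SE 0.044, adjusted p = 7.63e-05) and 1.28 in labelled dKO cells (SE 0.045, adjusted p = 5.8e-11), a difference that passed (1.00, adjusted p = 3.53e-08). Srxn1 encodes sulfiredoxin, which repairs overoxidised peroxiredoxins. Srxn1 (ENSMUSG00000032802, chromosome 2, 152105524 to 152111376) measured 70.3 and 70.8, 120.3 and 124, 50.5 and 46.3, and 126 and 134 CPM in the same order, with labelled dKO DMSO the lowest group. It rose 1.73-fold in WT (0.79, SE 0.054, adjusted p = 1.23e-08) and 2.69-fold in labelled dKO cells (1.43, SE 0.055, adjusted p = 1.57e-10), again with a difference that passed (0.64, adjusted p = 1.37e-05). Under MI-503 the genotypes did not pass for Srxn1 (0.09, 95% interval -0.02 to 0.21, adjusted p = 0.17; with library size only 0.16, which passed), and Txnrd1 was 1.20-fold lower in labelled dKO (-0.26, adjusted p = 0.000177).

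G6pdx encodes glucose-6-phosphate dehydrogenase, the entry enzyme of the pentose phosphate pathway and a main source of NADPH. G6pdx (ENSMUSG00000031400, chromosome X, 74409483 to 74428880) measured 330.3 and 324 CPM in WT DMSO, 589 and 615 in WT MI-503, 290.5 and 263 in labelled dKO DMSO, and 465 and 484 in labelled dKO MI-503. Every treated library was above every DMSO library. It rose 1.84-fold in WT (log2 fold change 0.88, SE 0.053, adjusted p = 3.36e-09) and 1.72-fold in labelled dKO cells (0.78, SE 0.053, adjusted p = 3.31e-08). It was the 1 gene of the 10 whose effects of MI-503 did not pass as different between the genotypes (-0.10, 95% interval -0.26 to 0.06, adjusted p = 0.304), although this passed with library size only (-0.26), with no filter (-0.20) and with the stricter filter (-0.19).

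Hmox1 encodes heme oxygenase 1, which breaks down heme and is induced by NRF2, by loss of the repressor BACH1 and by several other stress pathways. Hmox1 (ENSMUSG00000005413, chromosome 8, 75093618 to 75100593) measured 56.3 and 54.4 CPM in WT DMSO, 18.1 and 16.0 in WT MI-503, 33.3 and 29.5 in labelled dKO DMSO, and 27.8 and 26.9 in labelled dKO MI-503. WT DMSO was the highest group and WT MI-503 the lowest, with no overlap between groups. With MI-503, Hmox1 fell 3.24-fold in WT (log2 fold change -1.70, SE 0.076, adjusted p = 1.63e-10). It fell by 0.20 on the log2 scale in labelled dKO cells (SE 0.074, adjusted p = 0.0352), a call that ended without labelled dKO DMSO replicate 1 (-0.11) or labelled dKO MI-503 replicate 1 (-0.23) or 2 (-0.18). The difference between the genotypes was the largest of the 10 genes (1.50, SE 0.11, adjusted p = 1.22e-07). Hmox1 was lower in labelled dKO than in WT in DMSO (-0.82, adjusted p = 2.75e-07) and higher under MI-503 (0.68, adjusted p = 4.81e-06).

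Nfe2l2 (ENSMUSG00000015839, chromosome 2, 75675513 to 75704663) measured 552 and 588 CPM in WT DMSO, 459 and 466 in WT MI-503, 731 and 689 in labelled dKO DMSO, and 499 and 512 in labelled dKO MI-503. It was lower in all 4 treated libraries than in any DMSO library. It fell by 0.30 on the log2 scale in WT (SE 0.049, adjusted p = 8.23e-05) and by 0.49 in labelled dKO cells (SE 0.049, adjusted p = 1.35e-06). With library size only, the value in WT was -0.13 and still passed. Keap1 (ENSMUSG00000003308, chromosome 9, 21229730 to 21239332) measured 28.7 and 25.2, 47.1 and 43.8, 41.3 and 45.7, and 63.3 and 56.4 CPM in the same order. WT DMSO was the lowest group, and WT MI-503 overlapped with labelled dKO DMSO. It rose 1.69-fold in WT (log2 fold change 0.75, SE 0.082, adjusted p = 1.53e-06) and 1.38-fold in labelled dKO cells (0.46, SE 0.079, adjusted p = 0.000212).

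The regulator and its inhibitor thus moved in opposite directions with MI-503. The ratio of Nfe2l2 to Keap1 counts was 19.2 and 23.4 in WT DMSO, 9.75 and 10.6 in WT MI-503, 17.7 and 15.1 in labelled dKO DMSO, and 7.88 and 9.09 in labelled dKO MI-503. The differences of the effects between the genotypes were small for Nfe2l2 (-0.19, adjusted p = 0.0385) and Keap1 (-0.29, adjusted p = 0.0481). The Nfe2l2 difference did not pass without WT DMSO replicate 1, WT MI-503 replicate 1 or 2, labelled dKO DMSO replicate 1, or labelled dKO MI-503 replicate 1 or 2, with values of -0.21 to -0.15. The Keap1 difference did not pass without WT DMSO replicate 2, WT MI-503 replicate 1 or 2, labelled dKO DMSO replicate 2 or labelled dKO MI-503 replicate 2, with values of -0.34 to -0.20.

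**Figure D3:**
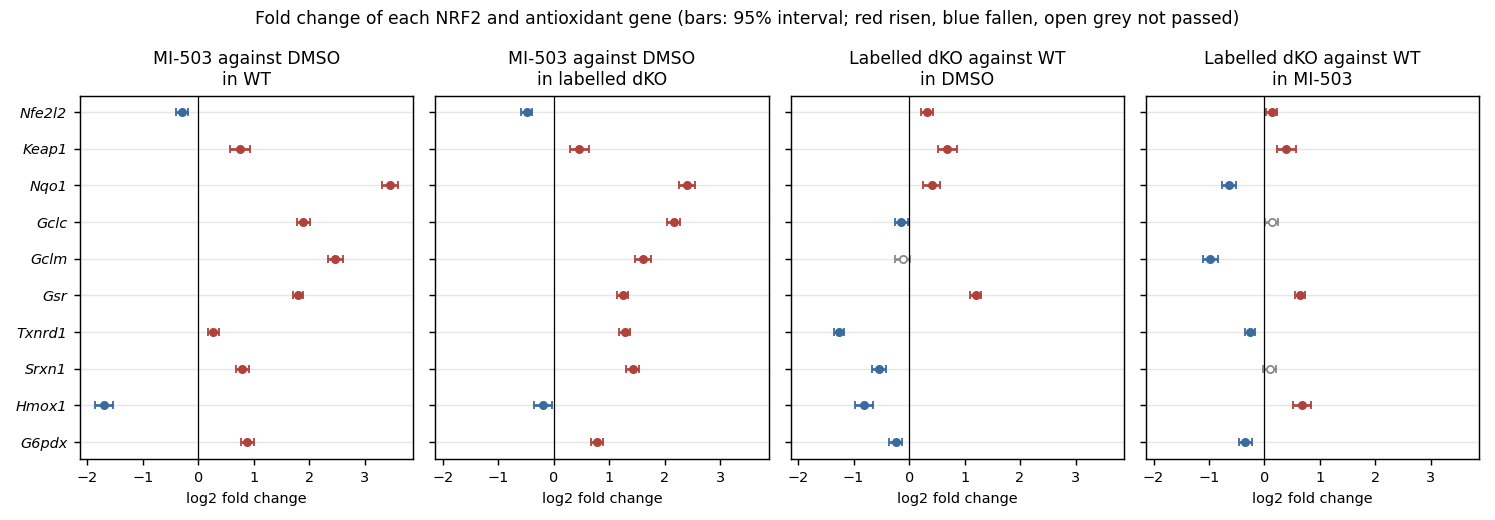
Log2 fold change of each of the 10 genes in 4 comparisons, with the 95% interval from the edgeR fit; red marks a rise and blue a fall at an adjusted p below 0.05, and open grey did not pass. With MI-503 (both left panels) 8 genes lie above 0 and Nfe2l2 and Hmox1 below it, whereas the genotypes (both right panels) differ in either direction.

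Between the genotypes in DMSO, the 10 genes did not move one way: 4 rose and 5 fell in labelled dKO, where 65.4% of all tested genes passed, 29.6% rising and 35.8% falling. The median log2 fold change of the 10 was -0.13, against -0.05 over all tested genes. The groups did not overlap for 9 of the 10, which held for 81.1% of all tested genes. Gsr was 2.29-fold higher (log2 fold change 1.20, SE 0.044, adjusted p = 3.54e-11) and Txnrd1 2.40-fold lower (-1.27, SE 0.045, adjusted p = 2e-11), so these 2 reductase genes went opposite ways. Of the other thioredoxin reductase genes, Txnrd2 had 9.13 ± 0.630 CPM in WT DMSO and 13.6 ± 0.0507 in labelled dKO DMSO. Txnrd3 had 26.0 ± 0.0657 and 21.0 ± 0.111 CPM (SD, n = 2). The ratio of Gsr to Txnrd1 counts was 0.223 and 0.206 in WT DMSO and 1.18 in each labelled dKO DMSO library. Keap1 (0.69, adjusted p = 4.72e-06) and Nfe2l2 (0.32, adjusted p = 6.21e-05) were both higher. Srxn1 (-0.55, adjusted p = 9.55e-07) and G6pdx (-0.24, adjusted p = 0.00112) were lower. Gclm did not pass (-0.12, 95% interval -0.25 to 0.02, adjusted p = 0.133), and it did without labelled dKO DMSO replicate 1 (-0.21). Gclc passed narrowly (-0.14, adjusted p = 0.04) but the call ended without WT DMSO replicate 2 (-0.10), either WT MI-503 replicate (-0.14 each) or labelled dKO DMSO replicate 2 (-0.08), with RLE size factors or DESeq2 (-0.10 each), with no filter or the stricter filter (-0.05 each), and with only the groups compared (-0.06). Scaling by library size alone moved the median of all genes by 0.23 in this comparison, which turned Gclc to 0.09 and Gclm to 0.11 and ended the call of G6pdx (-0.01), and it moved the share of higher genes among all calls from 45.3% to 61.7%.

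Under MI-503, 4 of the 10 genes were higher and 4 lower in labelled dKO than in WT, where 55.1% of all tested genes passed, 26.6% higher and 28.5% lower. The groups did not overlap for any of the 10, which held for 77.1% of all tested genes. This comparison uses no WT DMSO library. Gsr (0.64, adjusted p = 2.38e-08), Keap1 (0.40, adjusted p = 0.00078) and Nfe2l2 (0.13, adjusted p = 0.0418) were higher, as in DMSO, and G6pdx (-0.34, adjusted p = 8.55e-05) was lower. The Nfe2l2 call ended without any 1 of the 4 MI-503 libraries, with values of 0.11 to 0.15. With both WT DMSO libraries left out of the fit, 4 were again higher and 4 lower, and MI-503 in labelled dKO cells again raised 8 and lowered 2.

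The change with MI-503 differed between the genotypes for 9 of the 10 genes, where 46.8% of all tested genes passed. The value was higher in labelled dKO cells for 4 genes, Gclc, Txnrd1, Srxn1 and Hmox1 (24.8% of all tested genes), and lower for 5, Nfe2l2, Keap1, Nqo1, Gclm and Gsr (22%). Without WT MI-503 replicate 1 or 2 or without labelled dKO MI-503 replicate 2, 3 genes passed with a lower value in place of 5. Leaving out any 1 library gave 3 to 4 genes in each direction. The share of higher values among all genes that passed was 52.9%, and 37.2% with library size only and 42.7% with no filter.

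The patterns of the 10 genes over the 8 libraries were compared by the root mean square difference of centred log2 CPM, a description in which the libraries of a group share their condition. Nqo1 was nearest to Gclm among the 10 (difference 0.501), and 14 of 10114 genes with a mean of at least 5 CPM were nearer to it. Gclc and Gclm were nearest to each other (0.392), with 57 genes nearer to Gclc and 71 nearer to Gclm. Srxn1 and G6pdx were also nearest to each other (0.233), with 71 genes nearer to Srxn1 and 469 nearer to G6pdx. Txnrd1 was nearest to Srxn1 (0.331, with 212 nearer). Hmox1 and Nfe2l2 were nearest to each other (0.531), with 3214 genes nearer to Hmox1 and 6940 nearer to Nfe2l2. Keap1 was nearest to G6pdx (0.449, with 3582 genes nearer), and Gsr to Keap1 (0.503, with 726 nearer). Over all genes, the genes nearest to Nqo1 included Tmie (0.154) and Scin (0.378), and Scin was also among the 3 nearest to Gclm (0.150), after Casq2 (0.111) and Pfkfb1 (0.148). The nearest to Hmox1 were Sfmbt1 (0.0895), Tmed8 (0.113) and Rasal2 (0.122). The nearest to Gsr were Nme4 (0.0839), Stmn1 (0.0897) and the heme transporter gene Slc48a1 (0.105).

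Lists of other genes of the pathway are described by their counts, beside the shares of all tested genes. With MI-503 these shares were 35.2% risen and 33.7% fallen in WT, and 29.1% risen and 26.5% fallen in labelled dKO cells. Of 15 detoxification genes linked to NRF2, 14 rose and 1 fell in WT (median 1.26), and 11 rose, 2 fell and 2 did not pass in labelled dKO cells (median 0.83). The carbonyl reductase gene Cbr3 went from 1.30 ± 0.0204 to 40.2 ± 0.575 CPM in WT (SD, n = 2, log2 fold change 4.94, edgeR adjusted p = 1.98e-13) and from 2.70 ± 0.283 to 24.6 ± 1.77 in labelled dKO cells (3.18, adjusted p = 1.12e-11). Mgst1, a microsomal glutathione transferase gene, rose from 0.747 ± 0.0430 to 17.4 ± 1.56 CPM in WT (4.54, adjusted p = 5.59e-12). Ephx1, the gene of microsomal epoxide hydrolase, rose from 215 ± 1.88 to 513 ± 5.41 CPM in WT (1.26, adjusted p = 1.04e-11) and from 270.1 ± 1.37 to 495 ± 4.38 in labelled dKO cells (0.87, adjusted p = 1.07e-09).

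Of 11 NADPH supply genes, 9 rose and 2 fell in WT (median 0.79), and 6 rose, 2 fell and 3 did not pass in labelled dKO cells (median 0.46). Pgd, the next dehydrogenase after G6pdx in the pentose phosphate pathway, rose from 102 ± 3.66 to 280.1 ± 1.42 CPM in WT (log2 fold change 1.46, edgeR adjusted p = 9.71e-12) and from 133 ± 4.31 to 303 ± 10.6 in labelled dKO cells (1.19, adjusted p = 2.39e-10). Idh1, which encodes an NADPH-forming isocitrate dehydrogenase, rose in both as well (2.06 and 1.45, adjusted p = 9.13e-12 and 6.94e-10). Of 10 genes of heme and iron handling, 8 rose and 2 fell in WT (median 0.80), and 8 rose, 1 fell and 1 did not pass in labelled dKO cells (median 0.71). Ftl1, the ferritin light chain gene, rose from 724 ± 69.5 to 2136 ± 92.7 CPM in WT (1.56, adjusted p = 2.04e-10) and from 683 ± 44.2 to 1604 ± 105 in labelled dKO cells (1.23, adjusted p = 6.7e-09). Slc48a1 rose in both (1.70 and 1.51, adjusted p = 2.31e-12 and 1.84e-11). Hmox2, the constitutive heme oxygenase gene, was with Hmox1 a heme-degrading gene that fell in WT, from 131 ± 3.81 to 62.8 ± 1.10 CPM (-1.06, adjusted p = 2.83e-10). In labelled dKO cells Hmox2 had 51.7 ± 1.59 CPM in DMSO and 52.0 ± 0.948 with MI-503 and did not pass (adjusted p = 0.907). All 4 tested superoxide and peroxide enzyme genes rose in both genotypes (35.2% and 29.1% of all tested genes), with medians of 0.57 and 0.46, among them the catalase gene Cat (1.30 and 0.75, adjusted p = 1.79e-11 and 1.26e-08).

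The glutathione and thioredoxin lists were mixed, beside 35.2% of all tested genes risen and 33.7% fallen in WT and 29.1% and 26.5% in labelled dKO cells. Of 17 tested genes of glutathione supply and use, 8 rose, 6 fell and 3 did not pass in WT (median 0.09), and 8 rose, 5 fell and 4 did not pass in labelled dKO cells (median 0.17). Gpx2, an epithelial glutathione peroxidase gene, rose from 95.1 ± 10.6 to 599.6 ± 12.5 CPM in WT (log2 fold change 2.66, edgeR adjusted p = 6.59e-13) and from 490.1 ± 9.56 to 1165 ± 1.71 in labelled dKO cells (1.25, adjusted p = 1.42e-09). Abcc1, an exporter gene for glutathione conjugates, also rose (1.46 and 0.99, adjusted p = 8.71e-12 and 1.09e-09). Abcc3, a related exporter gene, rose from 9.60 ± 0.973 to 71.2 ± 3.16 CPM in WT (2.89, adjusted p = 6.34e-12). In labelled dKO cells Abcc3 was low, with 0.488 ± 0.0168 CPM in DMSO and 1.14 ± 0.258 with MI-503. Slc7a11, the cystine importer gene that feeds glutathione synthesis, fell from 186 ± 3.34 to 111 ± 3.38 CPM in WT (-0.74, adjusted p = 1.29e-08) and from 607 ± 29.1 to 400.2 ± 14.9 in labelled dKO cells (-0.60, adjusted p = 2.15e-07), opposite to Gclc and Gclm. Of 14 thioredoxin and peroxiredoxin genes, 8 rose, 5 fell and 1 did not pass in WT (median 0.20), and 7 rose, 5 fell and 2 did not pass in labelled dKO cells (median 0.17). Txnip, which encodes an inhibitor of thioredoxin, fell from 1389 ± 2.34 to 242 ± 12.8 CPM in WT (-2.52, adjusted p = 3.73e-13) and from 799 ± 23.0 to 108 ± 7.45 in labelled dKO cells (-2.89, adjusted p = 5.46e-13). The sestrin gene Sesn2 fell by 1.62 and 1.58 on the log2 scale (adjusted p = 9.7e-11 and 5.7e-10).

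Of 14 NRF2 regulators and partners, 6 rose and 8 fell in WT (median -0.29), and 6 rose, 6 fell and 2 did not pass in labelled dKO cells (median -0.06), where 69% and 55.6% of all tested genes passed. Sqstm1 encodes p62, which sequesters KEAP1 and is itself an NRF2 target. It fell from 850.2 ± 1.90 to 307 ± 7.34 CPM in WT (log2 fold change -1.47, edgeR adjusted p = 4.58e-12) and from 342 ± 9.23 to 156 ± 2.82 in labelled dKO cells (-1.13, adjusted p = 2.12e-10). Nfe2l1, a relative of Nfe2l2, fell in both (-0.80 and -1.19, adjusted p = 1.22e-08 and 8.79e-10). Nfe2l3, another relative, rose from 9.82 ± 0.630 to 46.5 ± 3.34 CPM in WT (2.24, adjusted p = 3.33e-11) and from 0.970 ± 0.0641 to 3.57 ± 0.304 in labelled dKO cells (1.88, adjusted p = 6.51e-08).

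**Figure D4:**
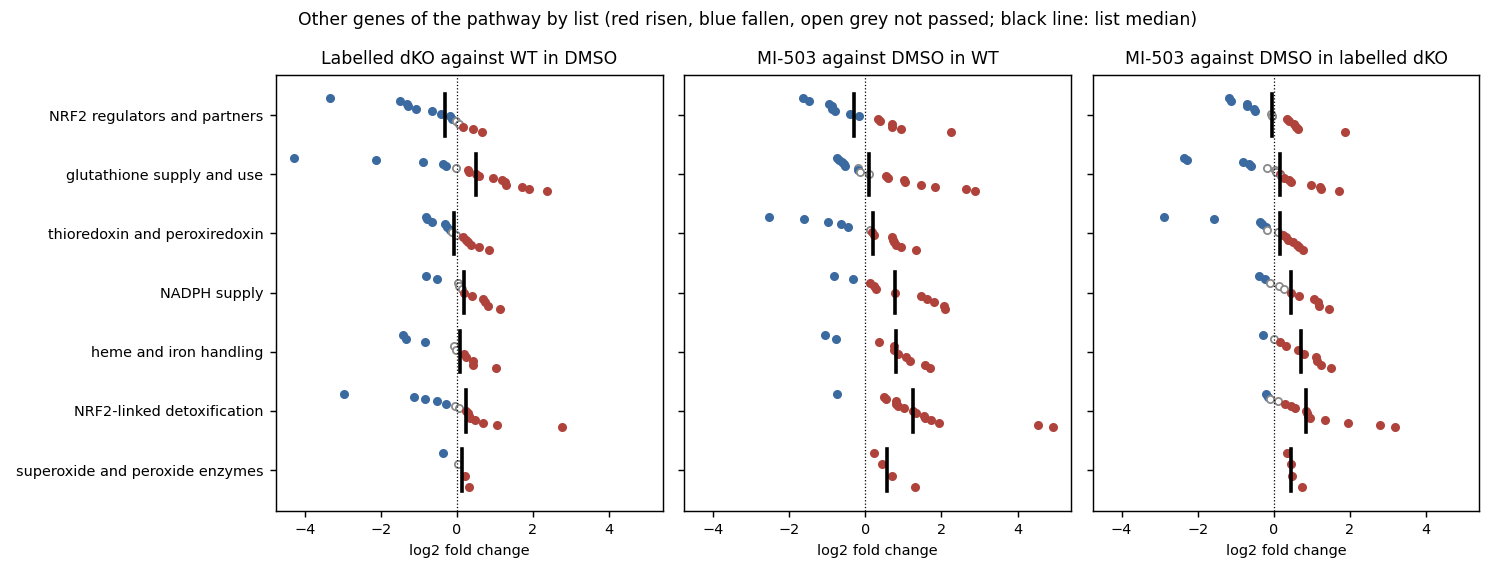
Log2 fold change of each tested gene of 7 pathway lists in 3 comparisons, with red for a rise and blue for a fall at an adjusted p below 0.05, open grey for genes that did not pass and a black line for the list median. With MI-503 the detoxification, NADPH and heme and iron lists lie mostly to the right of 0, and the lists of regulators, glutathione and thioredoxin genes lie on both sides.

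Between the genotypes in DMSO, these lists were mixed too, beside 29.6% of all tested genes risen and 35.8% fallen. In the glutathione list 11 of 17 genes rose and 5 fell in labelled dKO (median 0.49), among them Gpx2 (log2 fold change 2.37, edgeR adjusted p = 1.86e-12) and Slc7a11 (1.71, adjusted p = 4.38e-12) upward. The lowest log2 fold change in that list was -4.29, and Abcc3 had 9.60 ± 0.973 CPM in WT DMSO and 0.488 ± 0.0168 in labelled dKO DMSO. In the detoxification list 8 of 15 rose and 5 fell (median 0.25): the glutathione transferase gene Gsta1 rose from 9.76 ± 1.30 to 66.2 ± 5.37 CPM (2.76, adjusted p = 2.95e-11), while Gsta3 fell from 29.2 ± 0.328 to 3.70 ± 0.298 (-2.98, adjusted p = 9.03e-12). As close paralogs they can share reads, so both values are uncertain. In the list of regulators 3 of 14 rose and 9 fell (median -0.31), with Nfe2l3 (-3.34, adjusted p = 3.17e-11) and Sqstm1 (-1.32, adjusted p = 1.47e-11) among the latter. In the remaining lists 6 of 14 thioredoxin and peroxiredoxin genes rose and 6 fell, 6 of 11 NADPH genes rose and 2 fell, 5 of 10 heme and iron genes rose and 3 fell, and 2 of 4 superoxide and peroxide enzyme genes rose and 1 fell.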

How the data were processed

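The authors deposited a table of read counts per Ensembl gene for 8 RNA-seq libraries. Per the submitters' processing notes the study used STAR, Bowtie2, MACS3, deepTools and SICER with GRCm38 or mm10. The sources used here do not state which tool made the counts, the versions, the annotation release or the strand setting. Counts without strand cannot tell a gene from its antisense partner. 1 row with no identifier was left out.

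Counts were fitted with edgeR 4.0.16 (R 4.3.3): all 8 libraries, 1 mean per group, TMM scaling, filterByExpr, the quasi-likelihood test and Benjamini-Hochberg adjustment over all 16921 genes tested, called at an adjusted p of 0.05. SEs and 95% intervals come from that test. With 2 libraries against 2, an exact permutation test cannot go below p = 0.33. The script was tested on simulated data. The 10 genes and all lists were chosen with earlier results of these data known. Other genes are named by rule, from the 2 with the smallest adjusted p per list and comparison among those called with a mean of at least 5 CPM. Cd68, Slc7a11 with MI-503, the marker genes at 0, low or high and the genes set beside named ones for a second comparison were chosen after their values were seen. Alternatives were RLE factors, library size only, no or a stricter filter, a replicate block, only the groups compared, DESeq2 1.42.0 and leaving out each library. Leaving out both WT DMSO libraries and removing the chaperone genes were chosen after seeing the data. Promoter windows are RefSeq's for GRCm38.p6, matched by symbol. 1 gene that the likeness rule names is not reported here.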

Additional observations from a re-analysis of the deposited data

Results flagged for a closer look

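For 9 of the 10 genes the effect of MI-503 differed between the genotypes by the interaction term of the edgeR fit, as for 46.8% of all tested genes. With 1 library left out, 3 to 4 genes passed in each direction, in place of 4 higher and 5 lower. The log2 effect in labelled dKO cells minus that in WT was 1.50 for Hmox1, 1.00 for Txnrd1, 0.64 for Srxn1 and 0.27 for Gclc. It was -1.04 for Nqo1, -0.86 for Gclm, -0.55 for Gsr, -0.29 for Keap1 and -0.19 for Nfe2l2. WT DMSO, the group with high chaperone RNA, enters each of these values.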

How the results depend on the processing

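Of 810 alternative values for the 10 genes in 5 comparisons, 763 kept their direction and side of the threshold, 34 lost the call, 11 gained it and 2 changed sign. The sign changes were Gclc (0.088) and Gclm (0.113) between genotypes in DMSO with library size only, where 3 of the 10 genes were lower in place of 5. Leaving out 1 library gave 1 to 2 fallen genes with MI-503 in labelled dKO cells and 3 to 4 genes with a lower value in the difference of effects. The replicate numbers did not pair the samples (correlations of deviations -0.0503 to 0.0610), and with the replicate block 4 and 4 genes were higher and lower in DMSO, 8 and 2 with MI-503 in either genotype, 4 and 4 in the difference of effects, and 3 and 4 under MI-503. The difference of effects could not be fitted with only the groups compared. With 2 libraries per group, small differences such as those of Nfe2l2 and Keap1 depend on single libraries.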
